A study of Mus musculus with 6 samples.

Results

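Red blood cells are made by erythroblasts, which in the mouse mature in the bone marrow and also in the red pulp of the spleen. Their gene program is run by a small set of transcription factors. Gata1, Tal1, Lmo2 and Ldb1 sit together on DNA in 1 protein complex, and Klf1 switches on globin, heme and membrane genes beside it. Zfpm1 (also called Fog1), Gfi1b, Nfe2, Sox6 and E2f2 act in the same cells as cofactors, repressors, activators or cell cycle regulators. The 10 genes described here are those 10 regulators, chosen by name. Every probe set that the array annotation assigns to 1 of them alone was taken, 15 probe sets of the 45037 on the array, for 10 of the 18193 genes with such a probe set. A probe set is a group of short oligonucleotides that together read 1 mRNA, and the brightness of the labeled RNA bound to it is its signal. All 15 were bright enough to be tested, and none of their signals was under the floor of 23.5.

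The samples were the spleens of 3 garlic-fed mice and 3 control mice, with 1 Affymetrix array for each mouse and no pooling. All were male C57BL/6J mice that were 8 weeks old at the start and ate freely for 15 weeks in a specific pathogen-free facility. The garlic diet contained 4% lyophilized raw garlic powder and the control diet 4% cellulose. The rest of the food, with casein, cornstarch, sucrose, soybean oil and added L-cysteine, was the same for both groups, so the control mice had cellulose in the place of garlic and were not on ordinary chow. The question put by the design is which splenic mRNAs differed between the diets.

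The signals are MAS5 values on a linear scale in arbitrary units. The log2 fold change of a probe set is the mean log2 signal of the garlic-fed mice minus that of the control mice, fitted with limma, and the adjusted p is its Benjamini-Hochberg value over all 27022 probe sets tested. A gene with several probe sets is represented by its brightest one, as were all 12262 genes tested. The median signal of an array was 119.7 to 128.8 in garlic-fed mice and 127.9 to 132.2 in control mice. As a sign of RNA integrity, the ratio of tail-end to front-end signal of Gapdh was 0.769 to 0.999 in garlic-fed mice and 0.801 to 0.881 in control mice. Defining spleen markers were present. All 9 B cell markers measured were above the floor on every array, with summed signals of 49643 to 59195 in garlic-fed mice and 54913 to 62760 in control mice. The 11 markers of red pulp macrophages summed to 81363 to 96802 in garlic-fed mice and 76846 to 86727 in control mice.

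Of the 10 regulators, 3 were elevated in the garlic-fed mice after adjustment: Sox6, Nfe2 and Gfi1b. None was lower. Among all genes tested 0.343% were called higher (42 of 12262) and 0.00816% lower (1 gene). At an unadjusted p under 0.05 the number was 8 of 10, all of them with the higher mean in garlic-fed mice, against 6.89% of all genes (6.24% had the lower mean there), and the exceptions were Lmo2 and Ldb1. The criterion used in the study, a fold above 1.8 with an unadjusted p under 0.05, was met by Klf1, Tal1, Sox6, Nfe2 and Gfi1b, 5 of 10 against 1.08% of all genes. In 9 of 10 the 3 garlic-fed mice all lay above the 3 control mice, which was the case for 9.13% of all genes. The log2 fold change was above 0 in all 10, against 44.2% of all genes, and its median was 0.88 over the 10 regulators and -0.03 over all genes. The calls rested most on control mice 1 and 2. Without control mouse 1 or control mouse 2 no regulator passed the adjusted threshold in limma, while 8 had an unadjusted p under 0.05 in each case. Sox6 alone passed without garlic-fed mouse 2 or 3, and Sox6 and Nfe2 passed without garlic-fed mouse 1 or control mouse 3. Counts of 0 and 8 also came without the filter on dim probe sets and without the trend of variance. The spleen is a mixture of cells, and more erythroid cells cannot be told apart here from more of these mRNAs in each cell. All 10 genes were chosen with results of these arrays known, so they are not independent evidence of a direction.

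**Figure D1:**
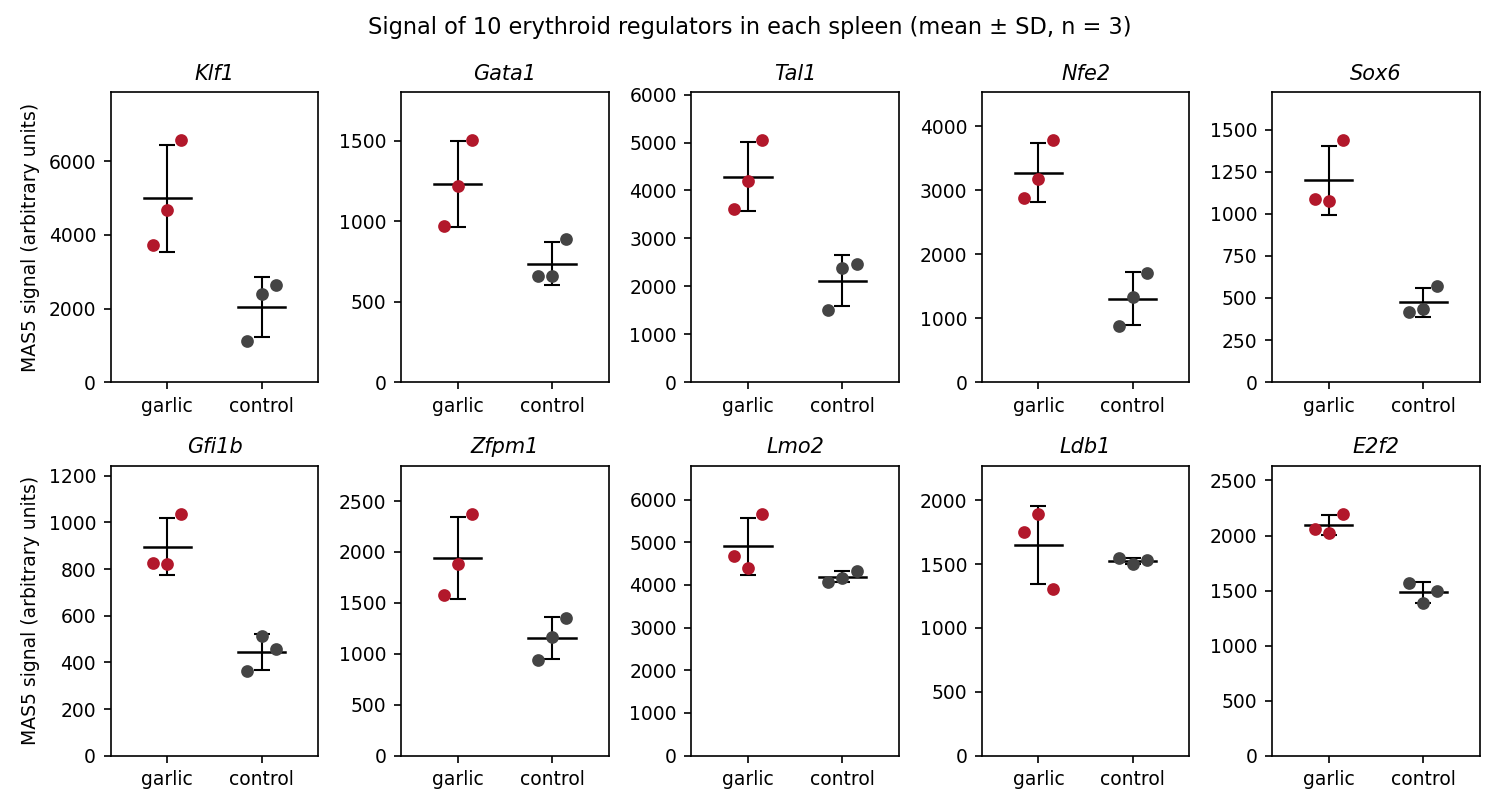
MAS5 signal (arbitrary units, linear axes from 0) of the 10 regulators in garlic-fed mice (red) and control mice (gray), by the brightest probe set of each gene. Points are mice 1, 2 and 3 from left to right, long bars are group means and whiskers 1 SD (n = 3 each). The groups are apart in 9 panels and overlap in that of Ldb1.

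Gata1, the zinc finger factor that erythroblasts need to mature, was read by 1 probe set (1449232_at). Its signal was 972, 1216 and 1501 in garlic-fed mice 1, 2 and 3, against 659, 660.1 and 888.5 in control mice. Every garlic-fed mouse was above every control mouse, although garlic-fed mouse 1 exceeded control mouse 3 only narrowly. The means were 1229.7 ± 265 and 736 ± 132 (SD, n = 3 each), a log2 fold change of 0.73 (SE 0.18, 95% interval 0.34 to 1.13) with an adjusted p of 0.143 in limma. Gata1 ranked 230 among the 12262 genes by log2 fold change. It missed the study's fold of 1.8, at 1.66.

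Klf1, the activator of adult globin and many red cell membrane genes, was among the genes with the highest fold changes, at rank 20. Its signal (1418600_at) was 3729.5, 4686 and 6572 in garlic-fed mice, against 1123, 2392 and 2644 in control mice. The groups did not overlap, but both were wide, and control mouse 1 lay far below the other control mice. The means were 4996 ± 1446 and 2053 ± 815 (SD, n = 3 each). The log2 fold change was 1.34 (SE 0.30, 95% interval 0.67 to 2.0), with an adjusted p of 0.119 in limma. It was 0.95 without control mouse 1 and 1.57 without control mouse 3.

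Tal1, a basic helix-loop-helix factor that binds E-boxes beside Gata1, had signals of 3615, 4203 and 5045.5 in garlic-fed mice, against 1514, 2387 and 2461 in control mice (1449389_at). The lowest garlic-fed mouse was well above the highest control mouse. The mean was 4288 ± 719 in garlic-fed mice and 2121 ± 526 in control mice (SD, n = 3 each), and the log2 fold change was 1.04 (SE 0.19, 95% interval 0.62 to 1.45, adjusted p = 0.0673 in limma). Tal1 thus missed the adjusted threshold and met the study's criterion, at a fold of 2.05.

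The same complex has bridging members that do not bind DNA themselves. Lmo2, the LIM-only protein that links Tal1 to Gata1, had signals of 4676, 4391 and 5664 in garlic-fed mice, against 4077, 4173 and 4333 in control mice (1454086_a_at). The garlic-fed mice were just above the control mice, with garlic-fed mouse 3 the only one clearly so. The log2 fold change was 0.22, with a 95% interval of -0.0088 to 0.45 (adjusted p = 0.478 in limma).

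Ldb1, the scaffold that binds Lmo2 and pairs with itself to bring distant DNA sites together, had signals of 1749, 1893 and 1305 in garlic-fed mice, against 1544, 1497 and 1532 in control mice (1452024_a_at). The groups overlapped, and garlic-fed mouse 3, the highest garlic-fed mouse for the other 9 regulators, was the lowest of all 6 mice here. The log2 fold change was 0.10, with a 95% interval of -0.21 to 0.40 (adjusted p = 0.859 in limma), and its sign turned without garlic-fed mouse 2 (-0.013). A rise of Ldb1 of the size fitted for Klf1 or Nfe2 lay outside that interval.

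The promoters of 8 of the 10 regulators were found in the RefSeq promoter table (GRCm38.p6), with 17 start sites. The 250 bases before each start were searched on both strands for the letters that 3 of the factors recognize. The GATA motif of Gata1 was taken as AGATAA or AGATAG, or either with T as its first letter. The CACCC motif of Klf1 was taken as CCNCNCCC, with N for any base. The E-box of Tal1 was taken as CAGATG. The GATA motif was in 5 of 17 windows, against 26.5% of 32851 windows of the same length. The CACCC motif was in 11 of 17, against 45.9%, and the E-box in 4 of 17, against 14.4%. A match is a description of letters and not a binding site. The windows of Klf1, Gfi1b and Gata1 are shown as examples, and windows of Tal1, E2f2, Sox6, Zfpm1 and Ldb1 held matches too. Those shown are written 5′ to 3′ on the strand of the gene with matches in capitals.
Klf1 promoter, chr8:84901732-84901981 (+ strand): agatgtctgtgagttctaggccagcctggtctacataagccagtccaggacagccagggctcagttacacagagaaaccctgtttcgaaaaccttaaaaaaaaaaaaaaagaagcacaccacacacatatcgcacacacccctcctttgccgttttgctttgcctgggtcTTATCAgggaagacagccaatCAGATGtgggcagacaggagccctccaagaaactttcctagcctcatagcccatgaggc
Gfi1b promoter, chr2:28621983-28622232 (− strand): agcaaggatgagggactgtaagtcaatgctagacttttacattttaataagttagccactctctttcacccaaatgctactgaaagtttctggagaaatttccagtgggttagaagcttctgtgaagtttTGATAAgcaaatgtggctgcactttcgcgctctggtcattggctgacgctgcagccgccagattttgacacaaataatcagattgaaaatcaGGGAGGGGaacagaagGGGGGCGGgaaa
Gata1 promoter, chrX:7967911-7968160 (− strand): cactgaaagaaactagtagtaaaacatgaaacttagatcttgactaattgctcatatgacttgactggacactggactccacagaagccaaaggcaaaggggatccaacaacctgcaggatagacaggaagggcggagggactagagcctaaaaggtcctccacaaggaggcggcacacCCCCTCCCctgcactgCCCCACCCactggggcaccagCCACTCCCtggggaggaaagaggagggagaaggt
In the Klf1 window TTATCA, which reads TGATAA on the other strand, lay 80 to 75 bases before the start, and the E-box CAGATG lay 59 to 54 bases before it. The Gfi1b window held TGATAA at 120 to 115 bases and CACCC matches at 28 to 21 and 12 to 5 bases before the start. The Gata1 window held CACCC matches, at 71 to 64, 55 to 48 and 34 to 27 bases before the start, and no match to the GATA motif.

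Nfe2 had the largest rise of the 10 genes by representative probe set. It encodes the p45 subunit of NF-E2, which pairs with a small Maf protein at globin enhancers and also acts in platelet formation. Its signal (1452001_at) was 2876, 3176 and 3781 in garlic-fed mice, against 885, 1326 and 1713 in control mice. The garlic-fed mice were all far above the control mice, which differed among themselves more on the log scale than the garlic-fed mice did. The means were 3278 ± 461 and 1308 ± 414 (SD, n = 3 each), a fold of 2.58 and a log2 fold change of 1.37 (SE 0.21, 95% interval 0.91 to 1.83, adjusted p = 0.0375 in limma). Nfe2 ranked 17 of 12262 genes. The call held without garlic-fed mouse 1 or control mouse 3. It was lost without garlic-fed mouse 2 (adjusted p = 0.0785), garlic-fed mouse 3 (0.0571), control mouse 1 (0.0989) or control mouse 2 (0.152).

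Sox6, an HMG box factor that silences embryonic globin in red cell precursors, was the only regulator with 4 probe sets. The brightest (1447655_x_at, whose name ending marks probes that may also bind other transcripts) read 1089.9, 1074 and 1436 in garlic-fed mice, against 418, 433 and 573 in control mice. The groups were far apart. The means were 1199.9 ± 205 and 475 ± 85.3 (SD, n = 3 each), a fold of 2.53 and a log2 fold change of 1.34 (SE 0.16, 95% interval 0.97 to 1.70, adjusted p = 0.0186 in limma). Sox6 kept its call without any 1 of the garlic-fed mice and without control mouse 3, and lost it without control mouse 1 (adjusted p = 0.120) or control mouse 2 (0.107).

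The further Sox6 probe sets did not all move alike. Probe set 1427677_a_at read 935, 1077 and 1177 in garlic-fed mice, against 343.5, 374 and 481.5 in control mice, a log2 fold change of 1.42 (SE 0.16, adjusted p = 0.0124 in limma). Probe set 1434918_at read 765, 1195 and 1237 in garlic-fed mice, against 339, 338 and 414 in control mice, a log2 fold change of 1.52 (SE 0.19, adjusted p = 0.0190 in limma). Both were elevated, with every garlic-fed mouse above every control mouse. The dimmest, 1426018_a_at, read 162, 152.5 and 249 in garlic-fed mice, against 145, 107 and 166 in control mice. There the groups overlapped, and the log2 fold change was 0.42 with a 95% interval of -0.16 to 1.00 (adjusted p = 0.615 in limma). Its difference from the other Sox6 probe sets was not tested.

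Gfi1b, a zinc finger repressor of erythroblasts and megakaryocytes that recruits the histone demethylase Lsd1, was the third regulator that rose. Its signal (1420399_at) was 827, 822 and 1037 in garlic-fed mice, against 363, 513 and 458 in control mice. All garlic-fed mice were above all control mice, and unlike for most regulators control mouse 2 was the highest of its group. The means were 895 ± 123 and 445 ± 76.0 (SD, n = 3 each), a fold of 2.02 and a log2 fold change of 1.02 (SE 0.16, 95% interval 0.66 to 1.37, adjusted p = 0.0427 in limma). Leaving out any 1 mouse ended this call, with adjusted p-values of 0.0551 without garlic-fed mouse 1, 0.0757 without garlic-fed mouse 2, 0.0574 without garlic-fed mouse 3, 0.180 without control mouse 1, 0.112 without control mouse 2 and 0.0890 without control mouse 3.

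Zfpm1 encodes Fog1, the cofactor that binds Gata1 and brings in the NuRD corepressor. Its brighter probe set (1451046_at) read 1574, 1886 and 2374 in garlic-fed mice, against 942, 1165 and 1351 in control mice. The dimmer one (1423603_at) read 302, 328 and 500.4 in garlic-fed mice, against 198, 196 and 249 in control mice. The groups were apart in both, with garlic-fed mouse 3 the highest. The log2 fold changes were 0.75 (SE 0.17, 95% interval 0.37 to 1.13, adjusted p = 0.125 in limma) and 0.79 (SE 0.21, adjusted p = 0.197). Both probe sets were designed on the same transcript record, so they are not separate evidence.

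E2f2, a cell cycle factor of the E2f family that acts in late erythroblast divisions, had the narrowest groups, relative to their means, of the regulators with an unadjusted p under 0.05. Its brighter probe set (1436434_at) read 2063, 2025.5 and 2197 in garlic-fed mice, against 1564.5, 1384 and 1499 in control mice. The means were 2095 ± 90.0 and 1482 ± 91.4 (SD, n = 3 each), a log2 fold change of 0.50 (SE 0.10, 95% interval 0.29 to 0.71, adjusted p = 0.0760 in limma). In the other probe set (1455790_at) the groups overlapped, at 1966, 1715.5 and 1927 in garlic-fed mice, against 1767, 1224 and 1629 in control mice. Its log2 fold change was 0.29 with a 95% interval of -0.02 to 0.61 (adjusted p = 0.483 in limma).

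Counted by probe set, 5 of 15 were elevated after adjustment, against 0.226% of all probe sets, and 11 of 15 had an unadjusted p under 0.05 with the higher mean in garlic-fed mice, against 5.58%. Garlic-fed mice lay wholly above control mice in 12 of 15, against 7.52%, and the log2 fold change was above 0 in 15 of 15, against 43.5%. The plot of all probe sets shows the genes with several probe sets side by side.

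**Figure D2:**
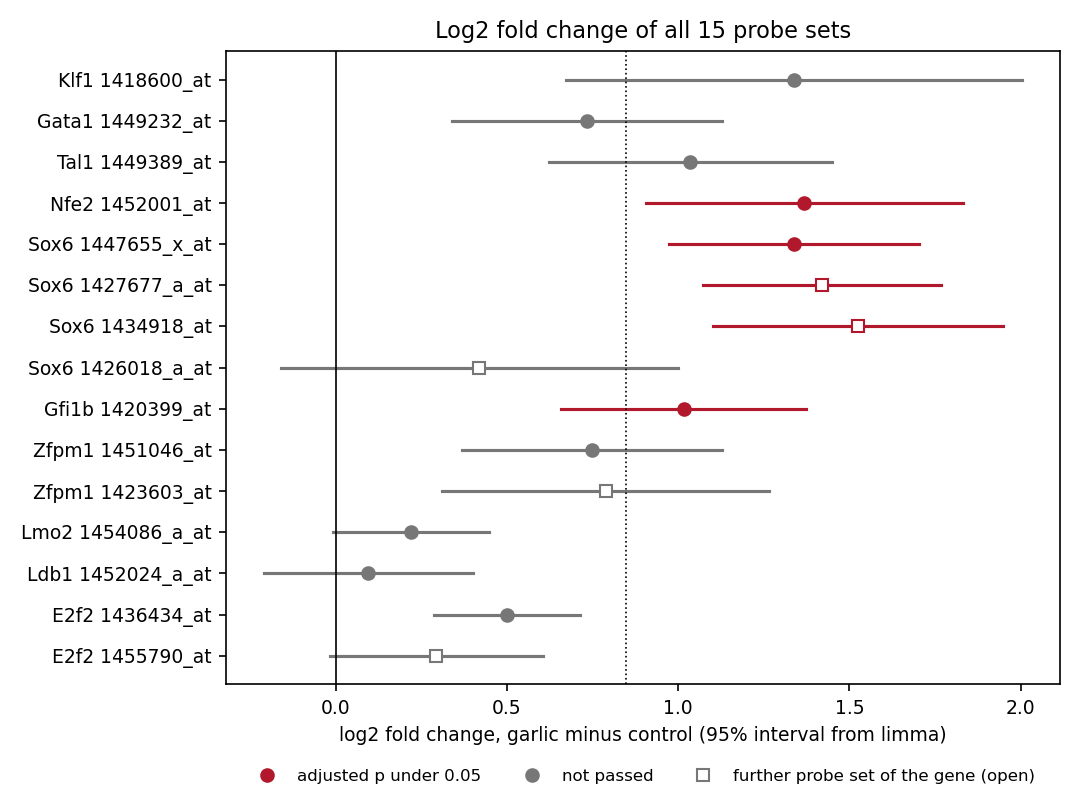
Log2 fold change, garlic minus control, of the 15 probe sets (points, with 95% intervals from limma, n = 3 each). Red marks an adjusted p under 0.05, open squares are further probe sets of a gene and the dotted line is the study's fold of 1.8. The 5 red probe sets belong to Nfe2, Sox6 and Gfi1b, and the intervals of Lmo2, Ldb1, 1 Sox6 and 1 E2f2 probe set reach below 0.

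The mice of a group did not share 1 level. Garlic-fed mouse 3 had the highest signal of its group for 9 of 10 regulators (35% of all genes), and control mouse 3 for 7 of 10 (33.1%). Control mouse 1 had the lowest signal of its group for 8 of 10 (37.5%). The median over the 10 regulators, as a log2 difference from the control mean, was 0.64, 0.82 and 1.15 in garlic-fed mice 1, 2 and 3, against -0.22, 0.01 and 0.25 in control mice. A list of known erythroid target genes, 40 of them tested, followed the same mice, with medians of 0.63, 0.71 and 1.14 in garlic-fed mice, against -0.23, 0.04 and 0.19 in control mice.

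When each mouse's target median was subtracted from its regulators, a step chosen after the values were seen, the brightest probe sets of the 10 genes were compared. That of Sox6 stayed above the control mice, at 0.47 to 0.58 in garlic-fed mice and -0.16 to 0.10 in control mice. The Sox6 probe sets 1427677_a_at (0.43 to 0.73 in garlic-fed mice and -0.12 to 0.10 in control mice) and 1434918_at (0.45 to 1.01 in garlic-fed mice and -0.14 to 0.14 in control mice) did likewise, whereas the dimmest, 1426018_a_at, overlapped, at -0.56 to -0.28 in garlic-fed mice and -0.40 to 0.32 in control mice. Nfe2 was at 0.44 to 0.62 in garlic-fed mice and -0.28 to 0.25 in control mice, and Klf1 at 0.33 to 0.63 in garlic-fed mice and -0.54 to 0.28 in control mice. Gata1, Tal1, Gfi1b, Zfpm1 and E2f2 overlapped between the groups after this step. Lmo2 was below the control mice, at -0.71 to -0.47 in garlic-fed mice and -0.14 to 0.19 in control mice. So was Ldb1, at -1.36 to -0.40 in garlic-fed mice and -0.18 to 0.25 in control mice. The medians subtracted were 0.63 to 1.14 in garlic-fed mice and -0.23 to 0.19 in control mice. A gene that did not change therefore falls below the control mice by the step itself, and the positions of Lmo2 and Ldb1 show no more than that. Sox6, Nfe2 and Klf1 had the largest log2 fold changes of the 10 genes, so their positions above largely restate those values. The share of all genes above or below after this step was not counted. These are descriptions with no test.

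**Figure D3:**
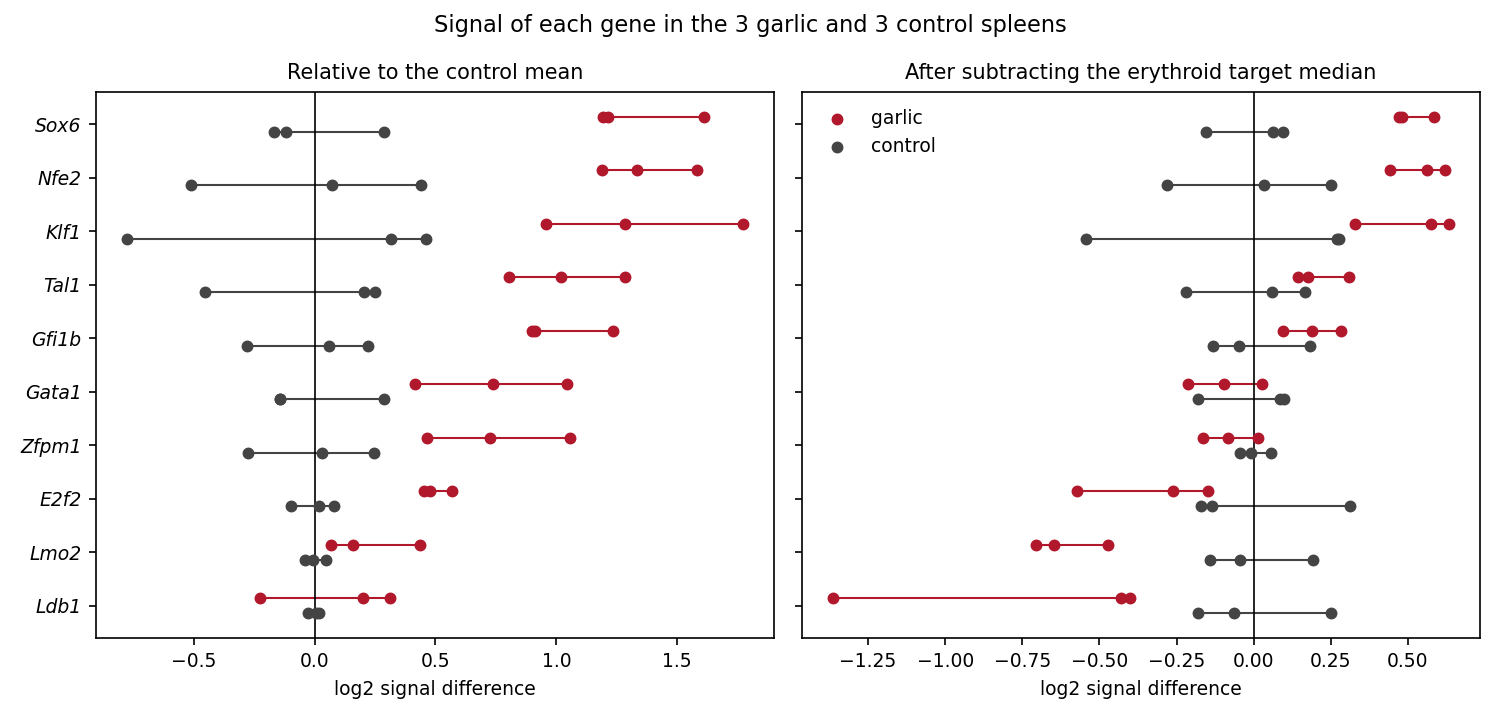
Log2 signal of each regulator in the 3 garlic-fed mice (red) and 3 control mice (gray), as the difference from the control mean (left) and after each mouse's median over 40 erythroid target genes was also subtracted (right). Points are mice and lines span each group. Each gene is shown by its brightest probe set. On the right Sox6, Nfe2 and Klf1 stay above the control mice, and Lmo2 and Ldb1 lie below them. A gene that did not change would also lie below them there, and the genes above are those with the largest fold changes.

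The genes whose signal most resembled that of Gata1 were sought by Pearson's r over the 6 arrays, which share the 2 diet groups, so any gene that differs between the diets scores high. Leading were Tmcc2 (r = 0.993), Birc5, the mitotic survival protein survivin (0.993), Cbwd1 (0.991), Agfg1 (0.991) and Cenpf, a kinetochore protein (0.988). Of the regulators Zfpm1 was the most similar to Gata1, at 0.978 and rank 30, and Ldb1 the least, at -0.05. The other 7 lay between 0.846 for Lmo2 and 0.947 for Sox6.

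Proteins that work with the regulators were then examined by list. Of 17 partners of the Ldb1 complex tested, none passed the adjusted threshold in limma and none had an unadjusted p under 0.05. The list median log2 fold change was 0.03. Its brightest genes, the E-proteins Tcf12 and Tcf4 that pair with Tal1, had log2 fold changes of -0.07 and -0.20. The list for the NuRD corepressor that Fog1 recruits had 15 genes, with Ctbp1, Ctbp2 and Zfpm2 among them, which are not NuRD subunits. None passed and 1 had an unadjusted p under 0.05, the corepressor Ctbp1 (0.19), named after its value was seen (list median 0.07). The histone-binding subunits Rbbp4 and Rbbp7 had values of 0.07 and -0.05.

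For the Lsd1 corepressor that Gfi1b recruits, none of 7 genes passed and none had an unadjusted p under 0.05. Kdm1a, which encodes Lsd1 itself, had signals of 2390.3, 2663 and 2321 in garlic-fed mice, against 2404, 2643 and 2385 in control mice. The groups overlapped fully, with a log2 fold change of -0.01 and a 95% interval of -0.22 to 0.20. Its partner Rcor1 had a value of 0.08.

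Among 7 partners and relatives of Nfe2, none passed the adjusted threshold, and 2 had an unadjusted p under 0.05. These were the small Maf genes that supply the other subunit of NF-E2 and are named after their values were seen. Mafk read 1029, 1129 and 1139 in garlic-fed mice, against 726, 754 and 920.2 in control mice (log2 fold change 0.46, adjusted p = 0.188 in limma). Mafg read 705, 731 and 711 in garlic-fed mice, against 352, 437 and 658 in control mice (log2 fold change 0.62, adjusted p = 0.280). In both genes the garlic-fed mice were all above the control mice. The brightest genes of the list, Bach2, a repressor that competes for the same sites, and Nfe2l2, which encodes Nrf2, had values of -0.26 and 0.16.

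The relatives of Gata1, Klf1 and Sox6 did not move as a family. None of 3 Gata, 12 Klf or 7 Sox genes tested passed the adjusted threshold, and at an unadjusted p under 0.05 there were only Klf7 (-0.38) and Sox17, an endothelial factor (-0.47), both lower and both named after their values were seen. Gata2, the factor that Gata1 replaces as erythroblasts mature, read 386, 461 and 338 in garlic-fed mice, against 409, 215 and 397 in control mice, with overlapping groups (log2 fold change 0.26, 95% interval -0.29 to 0.81). Klf3 and Klf2 had values of 0.14 and 0.03, Sox4 and Sox18 of -0.23 and -0.04, and Gata6 of -0.11. The list medians were 0.26, 0.02 and -0.19 for the Gata, Klf and Sox genes.

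Among the relatives of E2f2, Tfdp2, which encodes a DP protein that E2f factors need to bind DNA, rose. It read 2783, 2638 and 3106 in garlic-fed mice, against 1539, 1725 and 1983 in control mice, all garlic-fed mice above all control mice (log2 fold change 0.70, SE 0.12, adjusted p = 0.0480 in limma). Its other probe sets had values of 0.23, 0.29 and 1.08, and its call was lost without any 1 mouse, at adjusted p-values of 0.0575 to 0.211, with quantile normalization (0.0521), without the filter on dim probe sets (0.304), without the trend of variance (0.273) and with pancreatic signal as a covariate (0.473). Of 12 genes tested in this list 1 was higher and none lower after adjustment, and 3 genes had a higher mean at an unadjusted p under 0.05 (median 0.30). Beside Tfdp2 these were E2f8 (0.84) and E2f7 (0.43), repressive E2f factors, named after their values were seen. Among 24 S phase genes driven by E2f factors, 2 were higher after adjustment and 15 had a higher mean at an unadjusted p under 0.05, none lower (median 0.36). The adjusted calls were Ccne1, the cyclin of the entry to S phase (log2 fold change 1.01, SE 0.14, adjusted p = 0.0281), and Ccna2, the cyclin of S phase itself (0.77, SE 0.10, adjusted p = 0.0227). A further probe set of each gene did not pass in limma. That of Ccne1 had a value of 0.63 (adjusted p = 0.170), and that of Ccna2, with overlapping groups, of 0.50 (adjusted p = 0.391). Cyclins are also named by the study from these arrays. Both S phase calls were lost without garlic-fed mouse 2 or without any 1 of the control mice.

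Of 21 other regulators of erythroid fate, none passed in limma, while an unadjusted p under 0.05 was reached by 3 with the higher mean in garlic-fed mice and by 2 with the lower (median -0.05). After their values were seen, these can be named as Foxo3, Kmt5a (0.38) and Dnmt1 (0.25), against Fli1 (-0.37), a factor of megakaryocytes, and Hes6 (-0.27). Ikzf1, a lymphoid and erythroid zinc finger factor, had a value of -0.17 and Epas1, the hypoxia factor Hif2a, of -0.08. Foxo3, a factor of late erythroblast maturation, read 2232, 3082.5 and 3083 in garlic-fed mice, against 1891, 1734 and 2021.5 in control mice (log2 fold change 0.56, adjusted p = 0.141). Spi1, which encodes the Gata1 antagonist PU.1 and was also picked after its values were seen, read 1358, 1585 and 1279.9 in garlic-fed mice, against 1407, 1657.5 and 1415.5 in control mice (-0.09, adjusted p = 0.852).

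The erythroid target genes gave the clearest counts. Of 50 listed, 41 were named on the array and 40 tested. Of these, 14 were higher and none lower after adjustment, against 0.343% higher among all genes. An unadjusted p under 0.05 was reached by 31, each with the higher mean in garlic-fed mice, against 6.89% of all genes. The median log2 fold change was 0.82, near that of the 10 regulators. Many of these genes are named by the study from these arrays, so the count is not independent evidence of a direction. Kel, the Kell blood group protein, had a log2 fold change of 1.40 (SE 0.19, adjusted p = 0.0243 in limma), Ank1, the membrane skeleton protein ankyrin, of 1.37 (SE 0.15, adjusted p = 0.0137) and Cpox, a heme synthesis enzyme, of 1.33 (SE 0.18, adjusted p = 0.0240). Further probe sets had values of 1.04 and -0.19 for Ank1 and of 0.56 and 0.93 for Cpox, and none of these passed. Uros, another heme synthesis enzyme, read 1949.8, 1941 and 2631 in garlic-fed mice, against 755, 856 and 960.2 in control mice (log2 fold change 1.34, SE 0.14, adjusted p = 0.0123). The other Uros probe set had overlapping groups and did not pass (0.65, adjusted p = 0.434 in limma). The paper also measured spleen mRNAs by quantitative PCR at the time point of these arrays. There the regulators Gata1, Klf1 and Sox6 and the targets Kel and Cpox were marked as higher in garlic-fed mice. Uros was not marked as different. By immunoblot at the same time point the paper also reports raised Gata1, Sox6 and Tal1 protein in the spleen. Its arrays, PCR and immunoblots all drew on frozen tissue, so the mice may be the same. Globin was hardly covered by the probe sets of this list. Hbb-b2, named after its values were seen, had overlapping groups (0.10, 95% interval -0.71 to 0.90), and the Hba-a1 probe set was too dim to be tested. The groups also overlapped for Hba-a2 (0.17) and Hbb-bh1 (0.24), and for the bright heme synthesis gene Alas2 (0.20, adjusted p = 0.683 in limma). These too were named after their values were seen. The target count was 8 without garlic-fed mouse 2, garlic-fed mouse 3 or control mouse 3, and 0 without control mouse 1 or control mouse 2, where limma called no probe set at all and 1929 and 2273 had an unadjusted p under 0.05.

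**Figure D4:**
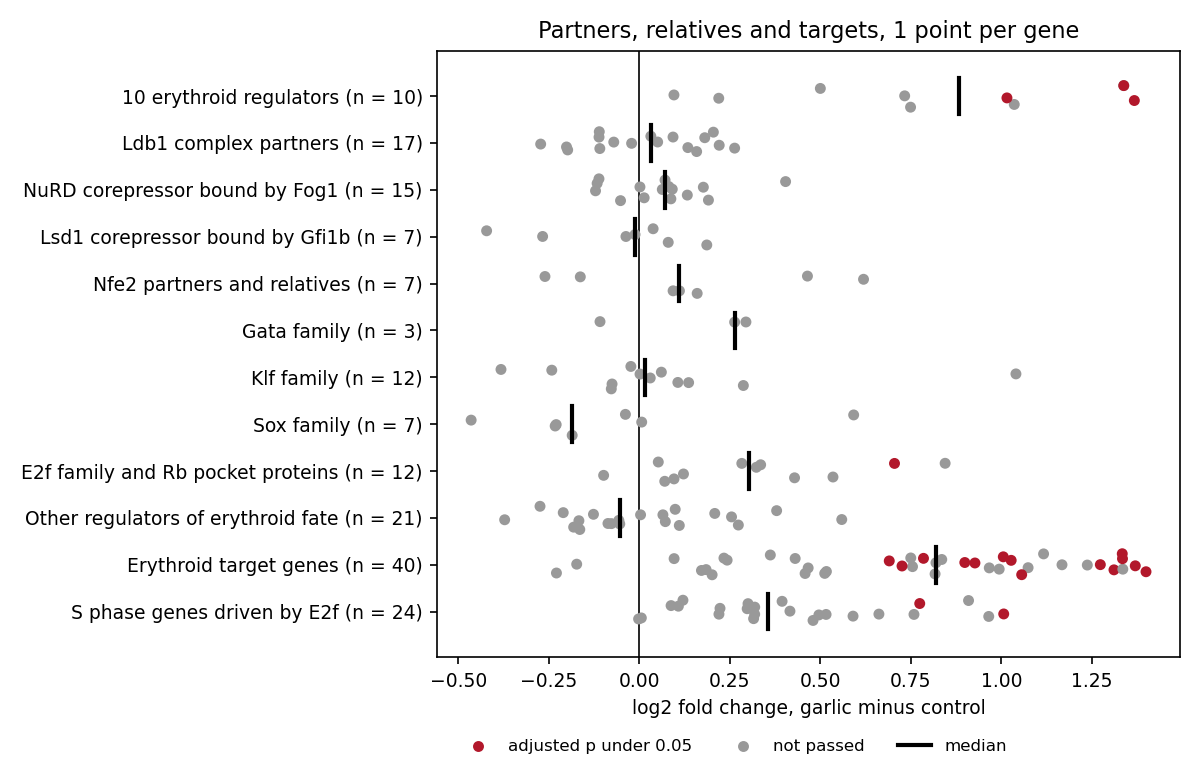
Log2 fold change, garlic minus control, of each gene tested (points) in the set of 10 regulators and in the lists of their partners, relatives and targets, with the list median as a black bar. Red points have an adjusted p under 0.05. The medians of the regulators (0.88) and of the erythroid targets (0.82) lie to the right, and those of the Ldb1, NuRD and Lsd1 partners lie between -0.01 and 0.07.

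Several of the 10 regulators are also active in megakaryocytes, mast cells, eosinophils and endothelium, so markers of these cells were examined beside them. Of 16 megakaryocyte and platelet markers tested, none passed the adjusted threshold or had an unadjusted p under 0.05, and none was under the floor on any array. Their summed signal was 15951 to 20194 in garlic-fed mice and 14282 to 20514 in control mice. Of 12 endothelial markers none passed and 1, Sox17, was lower at an unadjusted p under 0.05, with sums of 11278 to 13004 in garlic-fed mice and 11264 to 12513 in control mice. Of 11 mast cell markers only 2 were bright enough to be tested, neither passed, and the sums were 495 to 610.4 in garlic-fed mice and 456 to 502 in control mice. Of 5 eosinophil markers 3 were tested and none passed, with Il5ra (-0.63) lower at an unadjusted p under 0.05, and sums of 968 to 1857 in garlic-fed mice and of 1066.5 to 1393 in control mice. The erythroid cell markers differed, but all of them are also in the list of erythroid target genes, so they are not separate evidence. Of 9 tested 3 were higher after adjustment (Kel, Tfrc and Ermap) and 8 at an unadjusted p under 0.05, with summed signals of 61869 to 87060 in garlic-fed mice, all above the 39869 to 49988 in control mice. The part of these cells in the values of the regulators was not tested.

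RNA of pancreas and fat, organs next to the spleen, also differed between the mice. The 15 pancreatic markers were all lower in garlic-fed mice at an unadjusted p under 0.05 and none after adjustment. Their summed signal was 2226, 41913 and 2612 in garlic-fed mice, against 168300, 21196 and 76986 in control mice, so the groups overlapped, and control mouse 1 had both the most pancreatic signal and the lowest level of most regulators. With pancreatic signal as a covariate none of the 10 regulators passed in limma and 8 had an unadjusted p under 0.05. The log2 fold change was then 1.22 for Sox6, 1.22 for Nfe2, 1.06 for Klf1 and 0.79 for Gfi1b. Without garlic-fed mouse 2 and control mouse 1, the mice with the most pancreatic signal of each group, the values were 1.33 for Sox6, 1.13 for Nfe2, 0.98 for Klf1 and 0.93 for Gfi1b, again with 0 calls after adjustment and 8 at an unadjusted p under 0.05. The erythroid target genes called were 0 with the covariate and 2 without those mice. Fat markers summed to 22544, 23921 and 10930 in garlic-fed mice, against 12739, 14127 and 13339 in control mice. None of 7 tested passed, 1 was higher at an unadjusted p under 0.05 (Fabp4, 1.02), and garlic-fed mouse 3, the highest for 9 of 10 regulators, had the lowest fat signal of all mice.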

How the data were processed

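Spleen RNA of 3 garlic-fed and 3 control mice was measured, 1 array per mouse. The deposited values are intensities, the linear MAS5 signals that the authors computed per probe set. Each array has a 2% trimmed mean of 500, a scaling seen in the values, and the MAS5 version is not given in the sources used here. Such scaling sets every signal relative to the whole array. The number of arrays limits the precision.

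After 64 control probe sets were left out, a floor was set at 23.5, the 20th percentile of all signals, log2 was taken, and those averaging over 6.08 on the log2 scale (the 40th percentile) were tested with limma 3.58.1 in R 4.3.3 (lmFit, eBayes with trend = TRUE). Benjamini-Hochberg adjustment ran over all 27022. Probe sets were named from the platform annotation, 34945 with 1 gene, 932 with several (not used) and 9160 with none, and 34741 were matched to RefSeq. Promoters came from RefSeq's GRCm38.p6 table. Figures were drawn with matplotlib 3.10.9.

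The regulators and all lists were chosen with earlier results of these data known. Named of each list are the adjusted calls with the largest changes, up to 4, or the 2 brightest where none passed, and others are said to be chosen after their values were seen. The procedure was tested on simulated data. Alternatives were the normalization, floor, filter, trend, the methods' one-way ANOVA, averaging the probe sets of a gene, a block of replicate numbers, each mouse left out in turn, and pancreatic signal. Marker lists of stem and progenitor cells, T cells, B cells, red pulp macrophages, megakaryocytes, mast cells, eosinophils, endothelium, pancreas, fat and erythroid cells were examined. Labels give the mice of a group as separate animals.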

Additional observations from a re-analysis of the deposited data

How the results depend on the processing

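With the settings used for the report 3 regulators and 64 probe sets passed the adjusted threshold. All 10 regulators had a log2 fold change above 0 under every alternative except Ldb1, which ranged from -0.013 (without garlic-fed mouse 2) to 0.26 when 1 mouse was left out and was at -0.0039 without the most pancreatic array of each group. At an unadjusted p under 0.05 the number of regulators was 8 or 9 under all alternatives. Quantile normalization (68 probe sets), no floor (64) and a filter at the 60th percentile (62) kept 3 regulators, Sox6, Nfe2 and Gfi1b, and a floor at the 40th percentile gave 4 with 85 probe sets. Centring each array on its median gave 5 regulators and 151 probe sets and moved the median of all probe sets to 0.04, against -0.03. Without the filter 0 regulators and 11 probe sets passed, and without the trend of variance or by the methods' ANOVA 0 and 0, with 2812 and 2548 probe sets at an unadjusted p under 0.05. By that ANOVA 5 regulators met the study's criterion, as did 175 probe sets higher and 56 lower. With pancreatic signal as a covariate 0 regulators and 0 probe sets passed, and without the most pancreatic array of each group 0 and 28. Leaving out 1 mouse at a time gave 0 to 2 regulators and 0 to 114 probe sets. The cause of these shifts was not tested.

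The replicate number as a block gave 7 regulators (Gata1, Klf1, Tal1, Sox6, Nfe2, Gfi1b and Zfpm1) and 295 probe sets. The labels do not say that the numbers pair the mice. Over all probe sets tested, same-numbered mice had correlations of their deviations from the group means of 0.000642, -0.176 and 0.0781. Of 3 garlic-fed mice 1 correlated best with its own number. The medians of the 10 regulators, however, rose from mouse 1 to mouse 3 in both groups. With 3 mice per group these values cannot settle whether a number stands for something shared.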

Other observations

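Outside the erythroid lineage, markers of early blood cells and lymphocytes were set beside the regulators. Of 9 stem and progenitor cell markers, none passed the adjusted threshold in limma and 2 were lower at an unadjusted p under 0.05, Slamf1 (-0.47) and Flt3 (-0.27) (median log2 fold change -0.21). Their summed signal was 2861 to 3099.8 in garlic-fed mice and 3218 to 3758 in control mice, so all garlic-fed mice were below all control mice by this sum. By mean log2 signal, in which bright genes weigh less, the groups overlapped, at 7.936 to 8.025 in garlic-fed mice and 7.913 to 8.187 in control mice. None of 7 T cell markers passed, none was lower at an unadjusted p under 0.05, and all 7 had a log2 fold change below 0 (median -0.19). Of 9 B cell markers none passed and 3 were lower at an unadjusted p under 0.05, Fcer2a (-0.43), Cd22 (-0.23) and Cd79b (-0.23) (median -0.15). Among 11 red pulp macrophage markers none passed, 4 had a higher mean at an unadjusted p under 0.05 (Adgre1 0.41, Mrc1 0.36, Hmox1 0.32 and Spic 0.30), and all had a log2 fold change above 0 (median 0.15). Klf5, noticed after the values were seen, had the largest log2 fold change of the 12 Klf genes tested beside Klf1, and did not pass (1.04, 95% interval -0.05 to 2.13, adjusted p = 0.480 in limma), with 123, 116 and 121 in garlic-fed mice, against 12.8, 85.5 and 98.7 in control mice, 1 of them under the floor. These marker genes were named after their values were seen.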
